A study of Mus musculus with 6 samples.

Results

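The mitochondrial protein import machinery was examined in the liver RNA of mice with and without induced lipophagy, the autophagic degradation of lipid droplets. Of the 24346 rows of the deposited expression table, 37 were its members. They were chosen by name: 26 rows with a symbol that begins with Timm or Tomm, and 11 listed genes, namely Pam16, Dnajc19, Grpel1, Hspa9, Hspd1, Hspe1, Samm50, Mtx1, Mtx2, Pmpca and Pmpcb. The names were drawn up with earlier results of these data known, though no threshold on a measured value entered the rule. RNA was sequenced from 3 control and 3 lipophagy livers of C57BL/6J male mice, 8 weeks old when they were put on CDAHFD, a high-fat diet that lacks choline. All 6 mice ate CDAHFD for 6 weeks as a model of steatohepatitis and then normal chow for 2 weeks. They carried an adeno-associated virus of serotype 8 with the liver-specific thyroxine-binding globulin promoter. In lipophagy mice it encoded LDTS-eLIR, a lipid droplet-targeting sequence joined to an engineered LC3-interacting region that recruits the autophagosome. In control mice it encoded LDTS-LIR mut, in which that region no longer binds LC3. Both groups therefore carried the droplet-targeting sequence, which was itself lipogenic in the study's hands, and both had eaten CDAHFD. The promoter acts in hepatocytes whereas the RNA came from whole liver tissue.

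Most mitochondrial proteins are encoded in the nucleus, made in the cytosol and imported. Precursors enter through the TOM complex of the outer membrane. From there, beta-barrel proteins are handed to the SAM complex, carrier proteins to the small TIM chaperones and the TIM22 translocase, and proteins with a presequence to the TIM23 channel. An ATP-driven motor built around the matrix chaperone mortalin pulls the latter into the matrix, a peptidase removes the presequence, and a chaperonin folds the product. In hepatocytes these proteins serve the respiratory chain, fatty acid oxidation and the urea cycle.

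Levels were given as FPKM, fragments scaled to transcript length and to the mapped total, so that values can be set side by side between genes. Changes were computed on log2(FPKM + 1) with limma over 11493 genes whose mean reached 0.5 FPKM, adjusted by the Benjamini-Hochberg procedure across these genes, and are written as lipophagy minus control. Depth relative to control liver 1, read from the steps of low values, was 0.887 in control liver 2, 1.27 in control liver 3 and between 0.856 and 0.926 in the lipophagy group. The FPKM of all genes summed to between 622696 and 681138 in control livers and between 709993 and 782392 in lipophagy livers, without overlap. The 8 hepatocyte markers (Alb, Apoa1, Ttr and others) summed to between 54620 and 61600 FPKM in control livers and to between 65560 and 88310 FPKM in lipophagy livers, and none of them was at 0. Alb carried that separation, since the other 7 summed to between 19150 and 22440 FPKM in control and to between 20550 and 24220 FPKM in lipophagy livers, with overlap.

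No member passed the threshold of an adjusted p below 0.05, and the adjusted p of the members ranged from 0.134 to 0.945 by limma. Over all tested genes the same test called 3, or 0.0261%. The direction was nearly uniform with FPKM as deposited. Of the 35 members tested, 33 had a higher mean in lipophagy livers (23 after rescaling to TPM), whereas over all tested genes 54.5% did. With an unadjusted p below 0.05, 19 members (54.3%) were higher and 1 was lower. Among all tested genes 11.5% were higher and 7.97% lower by that measure, or 1327 and 916 genes. All lipophagy livers lay above all control livers in 19 members, against 15.4% of all tested genes, and all lay below in 1 member, against 10.8%. The median change of the members was 0.22 and that of all tested genes 0.020. These counts describe the list and were not tested as a set, because the members are expressed in the same livers and are not independent of each other.

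Summed over the 37 members, transcripts amounted to 1709, 1879 and 1875 FPKM in control livers 1, 2 and 3, compared with 2249, 2151 and 2034 FPKM in lipophagy livers 1, 2 and 3. This sum did not overlap between groups. It was 1821 ± 97.0 FPKM in control and 2145 ± 108 FPKM in lipophagy livers (SD, n = 3 each). The FPKM of all genes did not overlap either, and was also highest in lipophagy liver 1 (782392) and lowest in control liver 1 (622696). With every liver rescaled to the same total (TPM), the median change of the members fell from 0.22 to 0.043. Lipophagy liver 1 had the highest level of 23 of the 35 tested members, lipophagy liver 2 of 7 and lipophagy liver 3 of 3. At the other end, control liver 1 had the lowest level of 24 members. The mean deviation of the members from their own average was -0.17, -0.082 and -0.061 (log2) in control livers 1, 2 and 3. In lipophagy livers 1, 2 and 3 it was 0.16, 0.11 and 0.043. Without lipophagy liver 1 the members higher with an unadjusted p below 0.05 numbered 11, and without control liver 2 they numbered 12. In bulk tissue, fewer cells of a type and less RNA per cell cannot be told apart.

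**Figure D1:**
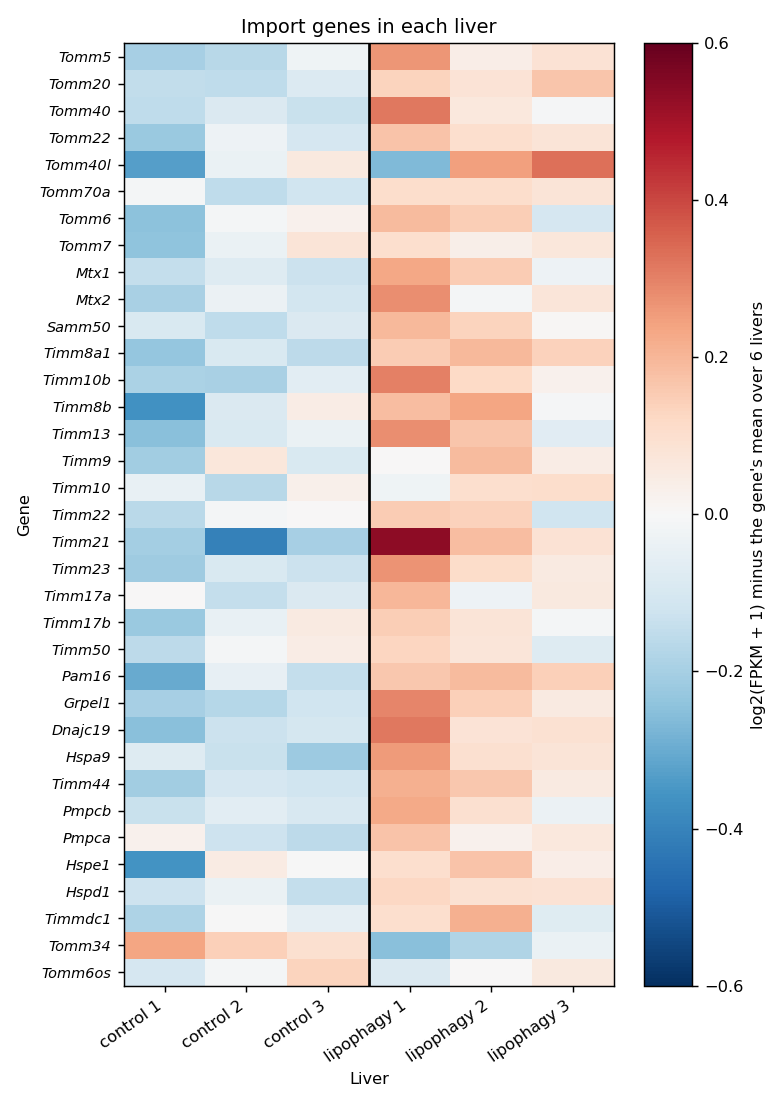
Level of the 35 tested import genes in each liver, as log2(FPKM + 1) minus the gene's mean over the 6 livers, with genes in rows by role and livers in columns. Red is above and blue below the gene's mean, lipophagy liver 1 is the highest for 23 genes, control liver 1 the lowest for 24, and the row of Tomm34 runs the other way.

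The scaling between livers mattered for these small differences. When each liver's FPKM values were rescaled to the same sum, which gives TPM, the median of all tested genes moved to -0.13 and that of the members to 0.043. Relative to the median of all genes the members then lay at 0.17, against 0.20 with FPKM as deposited, and 33 of 35 remained above that median. In TPM, 1 member (2.86%) was higher with an unadjusted p below 0.05, while over all genes 236 were higher and 2506 lower. After quantile normalization the member median was 0.089 and that of all genes 0.0074, so that the members lay only 0.082 above it. Then 8 members (22.9%) passed the unadjusted threshold upwards, against 6.48% of all genes, and 30 lay above the median of all genes. By that threshold 745 of all genes were higher and 899 lower. With FPKM as deposited that split was 1327 to 916. Every change given below is with FPKM as deposited, and where the direction of a member turned in TPM or after quantile normalization, this is said with it.

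**Figure D2:**
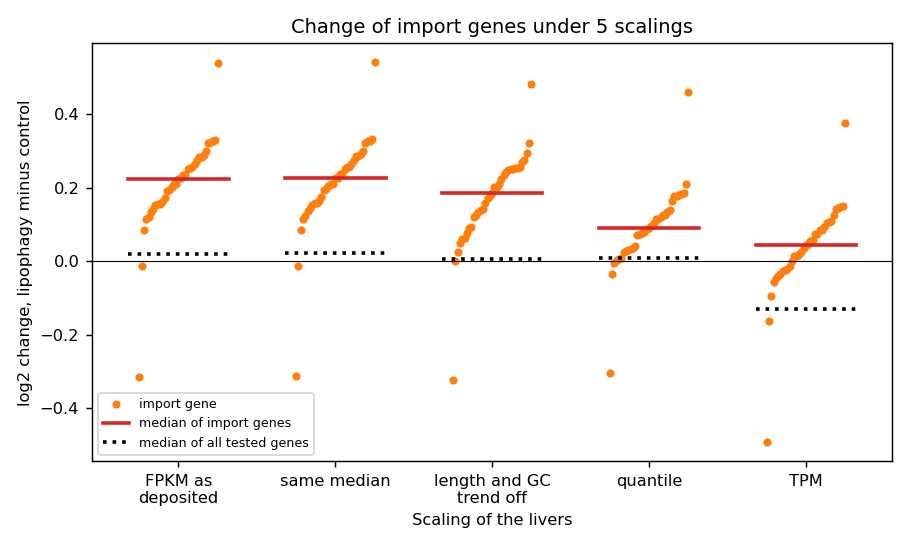
Change of the 35 import genes (log2, lipophagy minus control) under 5 scalings of the livers, 1 point per gene, with the median of the import genes (red bar) and of all tested genes (dotted bar). Both medians shift together in TPM, where the import genes have a median of 0.043 and all genes one of -0.13.

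Promoter sequence was one feature that the choice by name had not used. RefSeq windows of 300 bases (GRCm38.p6, 250 before and 50 after a start site) were found for 33 members, in 36 windows. Hspa9, Timm21, Tomm40l and Tomm7 had none. The core of the site bound by GABPA, an ETS factor known for its role in nuclear genes of mitochondria, was searched as CCGGAAG on both strands. It occurred in 17 of the 36 windows (47.2%), against 17.6% of the 11247 windows of tested genes and 8.86% of all 32851 windows. Some windows share bases, as those of Hspd1 with Hspe1 and the pair of Tomm34, and 2 belong to the untested Timm8a2 and Tomm20l. With overlapping windows merged, 15 of 32 (46.9%) held the match, and counted by gene over tested genes alone it was 15 of 31 members (48.4%) against 20.6% of 8819 genes. The NRF1 core GCATGCGC was present in 5.56% of member windows and 5.14% of those of tested genes. For YY1 (AAGATGGC) these shares were 5.56% and 4.46%, for ERRA (CAAGGTCA) 2.78% and 1.14%, for the CCAAT box 30.6% and 37.8%, for the GC box GGGCGG 61.1% and 61.0%, and for a heat shock element GAANNTTC 8.33% and 6.04%. A match is a run of letters and not a measured binding site, and no binding was measured here. Gabpa mRNA was 5.10 ± 0.668 FPKM in control and 5.28 ± 0.497 FPKM in lipophagy livers (SD, n = 3), a change of 0.044 with an adjusted p of 0.839 by limma, which turned to -0.12 in TPM and to between -0.0016 and -0.00069 when control liver 2, control liver 3 or lipophagy liver 3 was left out. Shown are the 120 bases before the start site of 4 members with a higher mean and of Tomm34, the one member lower beyond the unadjusted threshold, with CCGGAAG or its reverse complement in capitals.
Hspe1, matrix co-chaperonin, chr1:55088028-55088147, plus strand: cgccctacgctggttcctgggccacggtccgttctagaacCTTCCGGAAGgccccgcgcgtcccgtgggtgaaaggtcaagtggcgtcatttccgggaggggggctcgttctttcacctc
Tomm22, outer membrane receptor, chr15:79670748-79670867, plus strand: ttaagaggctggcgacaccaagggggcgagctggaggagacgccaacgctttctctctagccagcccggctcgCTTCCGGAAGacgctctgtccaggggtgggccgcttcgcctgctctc
Timm23, inner membrane channel, chr14:32201892-32202011, minus strand: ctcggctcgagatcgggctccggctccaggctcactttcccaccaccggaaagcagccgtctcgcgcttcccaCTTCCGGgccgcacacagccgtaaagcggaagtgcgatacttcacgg
Mtx2, metaxin of the outer membrane, chr2:74825692-74825811, plus strand: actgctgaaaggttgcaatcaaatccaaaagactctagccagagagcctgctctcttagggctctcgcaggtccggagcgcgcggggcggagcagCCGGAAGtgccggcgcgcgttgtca
Tomm34, cytosolic cochaperone, chr2:164071170-164071289, minus strand: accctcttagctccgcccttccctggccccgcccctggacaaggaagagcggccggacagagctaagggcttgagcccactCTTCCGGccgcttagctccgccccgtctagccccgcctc
In Hspe1 and Tomm22 the capitals form the palindrome of 2 overlapping matches, 1 on each strand, which began 80 and 77 bases before the start site in Hspe1 and 47 and 44 bases before it in Tomm22. The heat shock element match of Hspe1 overlaps the same stretch. The match began 47 bases before the start in Timm23, 25 in Mtx2 and 39 in Tomm34, at the upstream one of its 2 RefSeq start sites. Presence of the match thus did not separate Tomm34 from members with a higher mean. Members with larger differences were found both with the match (Grpel1 and Timm10b) and without it (Pam16, Dnajc19, Timm44 and Timm8a1).

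The outer membrane receptors and channel came first in the path. All 8 tested TOM genes had a higher mean in lipophagy livers, with a median change of 0.22, and 5 of them did not overlap between groups. Over all tested genes, 54.5% had a higher mean and 15.4% lay wholly above the control livers. An unadjusted p below 0.05 was found for 5 TOM genes, against 0 in TPM and 1 after quantile normalization. Among all tested genes 11.5% were higher with such a p, 2.05% in TPM and 6.48% after quantile normalization. Tomm20, a receptor for presequences, had 12.4, 12.4 and 13.1 FPKM in control livers and 15.3, 14.8 and 15.7 FPKM in lipophagy livers. Its groups were separated by more than the spread within either, with a change of 0.25 (SE 0.072, adjusted p = 0.159, limma). Tomm22, the central receptor, was at 53.2, 61.1 and 58.1 FPKM in control and at 70.3, 66.9 and 65.8 FPKM in lipophagy livers, a change of 0.23. Tomm70a, the receptor for carrier precursors, differed by 0.19 with a narrow spread in lipophagy livers, from 23.9 ± 1.29 to 27.3 ± 0.294 FPKM (SD, n = 3). Tomm40, the beta-barrel that forms the pore, was at 20.7, 21.6 and 20.9 FPKM in control livers and 28.9, 24.1 and 23.0 FPKM in lipophagy livers, a difference of 0.25 that was largest in lipophagy liver 1 and became 0.15 without it. Tomm5, a small subunit of the pore, was at 42.5 ± 2.81 and 51.2 ± 4.32 FPKM, a change of 0.26.

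The other TOM genes overlapped between groups. Tomm40l, a paralog of Tomm40, varied more than any other tested member in lipophagy livers, with 15.1, 18.7 and 20.0 FPKM in control and 15.8, 23.0 and 24.5 FPKM in lipophagy livers. Among lipophagy livers it was lowest in liver 1, the liver with the highest level of 23 members. The change of Tomm40l, 0.21, was 0.39 without lipophagy liver 1, 0.094 when either control liver 1 or lipophagy liver 3 was left out, and 0.14 when lipophagy liver 2 was. The small subunits Tomm6 and Tomm7 changed by 0.16 and 0.13 with adjusted p of 0.454 and 0.456 (limma). Their sign turned in TPM, to -0.024 and -0.046, and that of Tomm7 also after quantile normalization, to -0.0061. Without control liver 1 the changes were 0.072 and 0.047. Tomm6 was at 0.10 when lipophagy liver 1 was left out and at 0.25 when lipophagy liver 3 was, and Tomm7 was at 0.21 when control liver 3 was. Reads of Tomm6 are uncertain, as 72.8% of its stretches of 75 bases are shared with an overlapping gene model on the same strand. Tomm20l, a paralog of Tomm20, was listed at 0 in 5 livers and at 0.0959 FPKM in lipophagy liver 3, and was not tested.

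Tomm34 differed from the rest. Despite its name it is a cytosolic cochaperone of heat shock proteins and not a subunit of the pore. It was at 5.82, 5.39 and 5.19 FPKM in control livers and at 3.86, 4.12 and 4.63 FPKM in lipophagy livers, so that every lipophagy liver lay below every control liver. The change was -0.32 (SE 0.087, adjusted p = 0.156, limma), with a range of -0.37 to -0.27 when each liver was left out in turn, and it was -0.49 in TPM. Tomm34 lies at chr2:164053540-164071169 on the minus strand of GRCm38 (GENCODE) and overlaps Stk4 on the other strand. Stk4 was at 2.59 to 2.91 FPKM in control and at 2.28 to 2.66 FPKM in lipophagy livers. Tomm6os, a noncoding transcript opposite Tomm6, was at 2.90 ± 0.321 and 2.86 ± 0.197 FPKM, and its change of -0.014 turned sign after quantile normalization (0.037) but not in TPM. Whether the counting of the deposited values used the strand was not given in the sources used here, although the library kit keeps it.

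**Figure D3:**
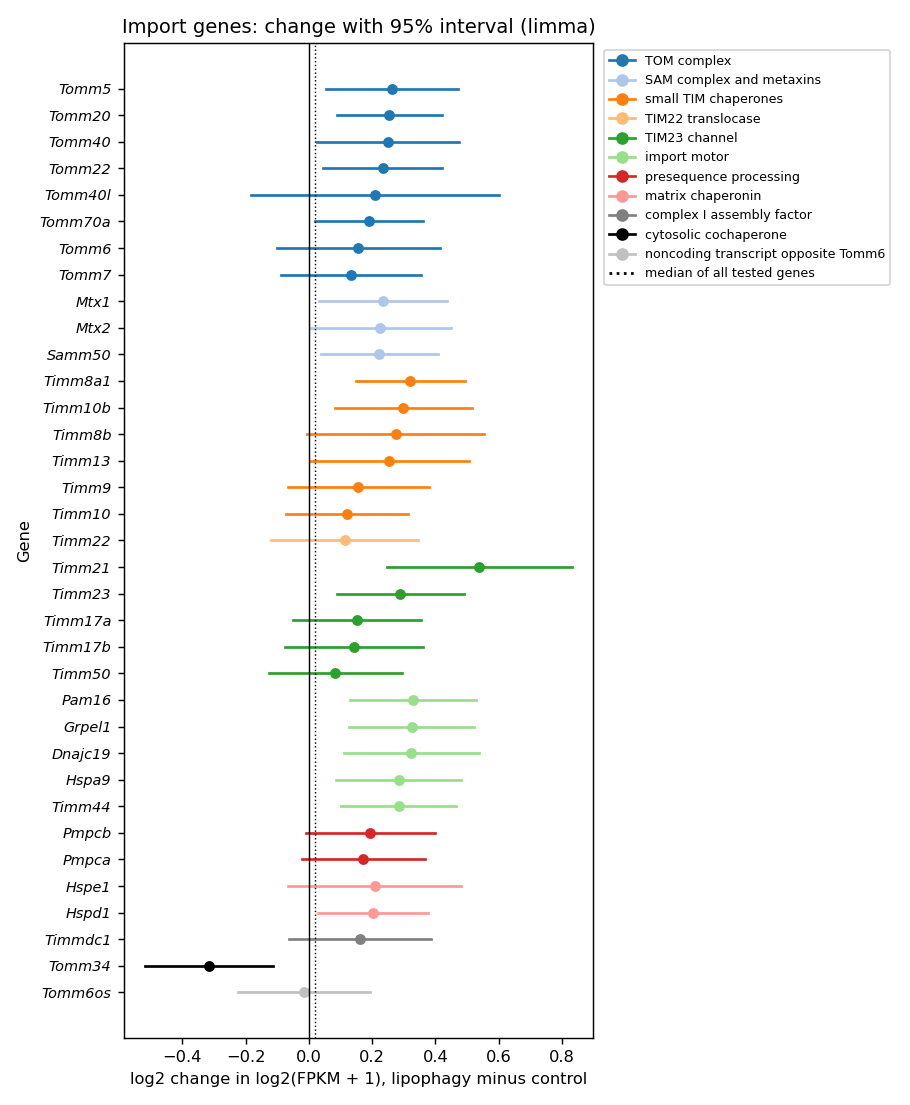
Change of each tested import gene (log2 of FPKM + 1, lipophagy minus control, points) with its 95% confidence interval from limma (bars), coloured by role, n = 3 livers per group. Timm21 has the highest change (0.54), the 5 motor genes lie between 0.28 and 0.33, and Tomm34 is the one gene with an interval wholly below 0.

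The SAM complex and its metaxins, which insert beta-barrel proteins into the outer membrane, were uniform. Samm50, the core of the complex, was at 62.6, 60.0 and 62.9 FPKM in control livers and at 76.8, 73.4 and 67.2 FPKM in lipophagy livers. Mtx1 was at 24.4, 25.5 and 24.7 FPKM against 31.9, 30.1 and 26.5 FPKM, and Mtx2 at 39.6, 44.3 and 42.0 FPKM against 55.4, 45.0 and 47.8 FPKM. The 3 genes changed by 0.22, 0.23 and 0.23, and none overlapped between groups (15.4% of all tested genes stood wholly above), but their adjusted p lay between 0.206 and 0.253 (limma). In TPM and after quantile normalization none of the 3 had an unadjusted p below 0.05. The change of Mtx2 was 0.14 without lipophagy liver 1.

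In the intermembrane space the small TIM chaperones escort hydrophobic precursors, Timm9 with Timm10 and Timm8a1 or Timm8b with Timm13. All 6 tested had a higher mean, with a median of 0.26, and 2 did not overlap between groups, where 15.4% of all tested genes stood apart in that direction. The 3 with an unadjusted p below 0.05 became 0 in TPM and 2 after quantile normalization. Among all tested genes 11.5% were higher with such a p, 2.05% in TPM and 6.48% after quantile normalization. Timm8a1 was at 38.0, 42.0 and 40.0 FPKM in control and at 49.8, 51.4 and 49.3 FPKM in lipophagy livers. The 3 livers of each group lay close together, with a change of 0.32 (SE 0.074, adjusted p = 0.134, limma), which leaving out any one liver kept between 0.28 and 0.35. Of its 75-base stretches, 39.9% occur in another gene model, which has no row in the table. Timm10b, which docks the chaperones on the TIM22 translocase, was at 17.4, 17.3 and 19.1 FPKM against 24.8, 21.8 and 20.3 FPKM, a change of 0.30. Timm8b and Timm13 changed by 0.27 and 0.25 and overlapped between groups. For Timm8b, control liver 1 had 114 FPKM and control livers 2 and 3 had 138 and 152 FPKM, a wider spread than among the lipophagy livers (146 to 174 FPKM), and without control liver 1 its change was 0.16. Timm9 and Timm10, which form 1 hexamer, had the smallest differences of the group, 0.16 and 0.12, and both turned sign in TPM (-0.021 and -0.057). With single livers left out they ranged from 0.091 (without control liver 1) to 0.23 for Timm9 and from 0.067 (without control liver 2) to 0.17 for Timm10. Without lipophagy liver 2 that of Timm9 was 0.10. Timm8a2 was at 0.0394 FPKM in control liver 3, at 0.0542 FPKM in lipophagy liver 3 and at 0 in the other 4, and was not tested.

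Timm22, the channel through which carriers enter the inner membrane, was a low member with 4.60 ± 0.347 FPKM in control and 5.07 ± 0.624 FPKM in lipophagy livers (SD, n = 3). Its change of 0.11 overlapped between groups and turned to -0.041 in TPM. Its value was 0.061, 0.066 and 0.072 when control liver 1, lipophagy liver 1 and lipophagy liver 2, respectively, were left out, and 0.20 when lipophagy liver 3 was. Its partner Timm29 stands in the table under the older symbol 1810026J23Rik and so was not chosen by name. It was at 9.82, 10.1 and 8.85 FPKM in control and at 11.4, 10.9 and 11.8 FPKM in lipophagy livers, a change of 0.22 (adjusted p = 0.209, limma) without overlap.

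Within the TIM23 translocase the differences were unequal. Timm21, which links the channel to the TOM complex and to respiratory chain assembly, had the greatest change of all members, 0.54 (SE 0.127, adjusted p = 0.134, limma). It was at 12.1, 10.4 and 12.1 FPKM in control livers and at 20.9, 16.1 and 15.0 FPKM in lipophagy livers. Lipophagy liver 1 was the highest by some distance, but livers 2 and 3 also lay above all controls, and the change stayed between 0.40 and 0.63 when each liver was left out in turn. It was 0.37 in TPM. Fbxo15, which overlaps it on the other strand, was listed at 0 in 5 livers and at 0.123 FPKM in lipophagy liver 2. Timm23, the channel itself, was at 98.1, 107 and 104 FPKM in control and at 137, 123 and 118 FPKM in lipophagy livers, a change of 0.29 without overlap. This value is uncertain because 78.2% of its 75-base stretches occur in other gene models without a row in the table.

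The other 3 channel genes overlapped between groups. Timm17a and Timm17b, alternative partners of Timm23 in the channel, changed by 0.15 and 0.14, and Timm50, the receptor that passes presequences to it, by 0.084 with 34.1 ± 2.52 and 36.2 ± 2.72 FPKM (SD, n = 3). In TPM these became -0.027, -0.034 and -0.095, and Timm50 was also below 0 after quantile normalization (-0.034). Leaving out control liver 1 gave 0.065 for Timm17b and 0.026 for Timm50, and leaving out lipophagy liver 1 gave 0.091 for Timm17a and 0.040 for Timm50. Timm50 was at 0.13 when control liver 3 was omitted and at 0.14 when lipophagy liver 3 was. Timmdc1, which shares a protein domain with the Timm17 family but acts in the assembly of respiratory complex I, changed by 0.16 with overlap and by -0.013 in TPM. Without lipophagy liver 2 its change was 0.094.

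The import motor was uniform as well. All 5 genes had a higher level in every lipophagy liver than in any control liver, an unadjusted p below 0.05 and changes between 0.28 and 0.33, where 15.4% of all tested genes stood apart in this way and 11.5% were higher with such a p. Their sum was 330, 342 and 333 FPKM in control livers and 446, 404 and 395 FPKM in lipophagy livers. Hspa9, the mortalin ATPase, was at 146, 140 and 132 FPKM in control and 184, 165 and 163 FPKM in lipophagy livers. Its nucleotide exchange factor Grpel1 was at 37.6, 38.4 and 39.8 FPKM against 53.3, 48.0 and 45.0 FPKM, a change of 0.33 (SE 0.086, adjusted p = 0.147, limma). Both proteins work as a pair, and the differences of their mRNAs were of like size. Timm44, which anchors mortalin at the channel, was at 26.3, 28.4 and 28.0 FPKM against 35.5, 34.2 and 31.7 FPKM. Dnajc19, a J protein that stimulates mortalin, was at 80.5, 87.6 and 89.0 FPKM against 120, 101 and 102 FPKM. Pam16, which restrains that stimulation, was at 39.1, 46.9 and 43.8 FPKM against 54.3, 55.5 and 53.7 FPKM. Lipophagy livers thus varied little in Pam16 and more in Dnajc19. Of the 75-base stretches of Pam16, 88.1% also occur in another gene model that has no row in the table, so its value is uncertain. In TPM the 5 changes lay between 0.10 and 0.15 with no turned sign, but none of them had an unadjusted p below 0.05. After quantile normalization 4 did, against 6.48% of all tested genes that were higher with such a p.

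**Figure D4:**
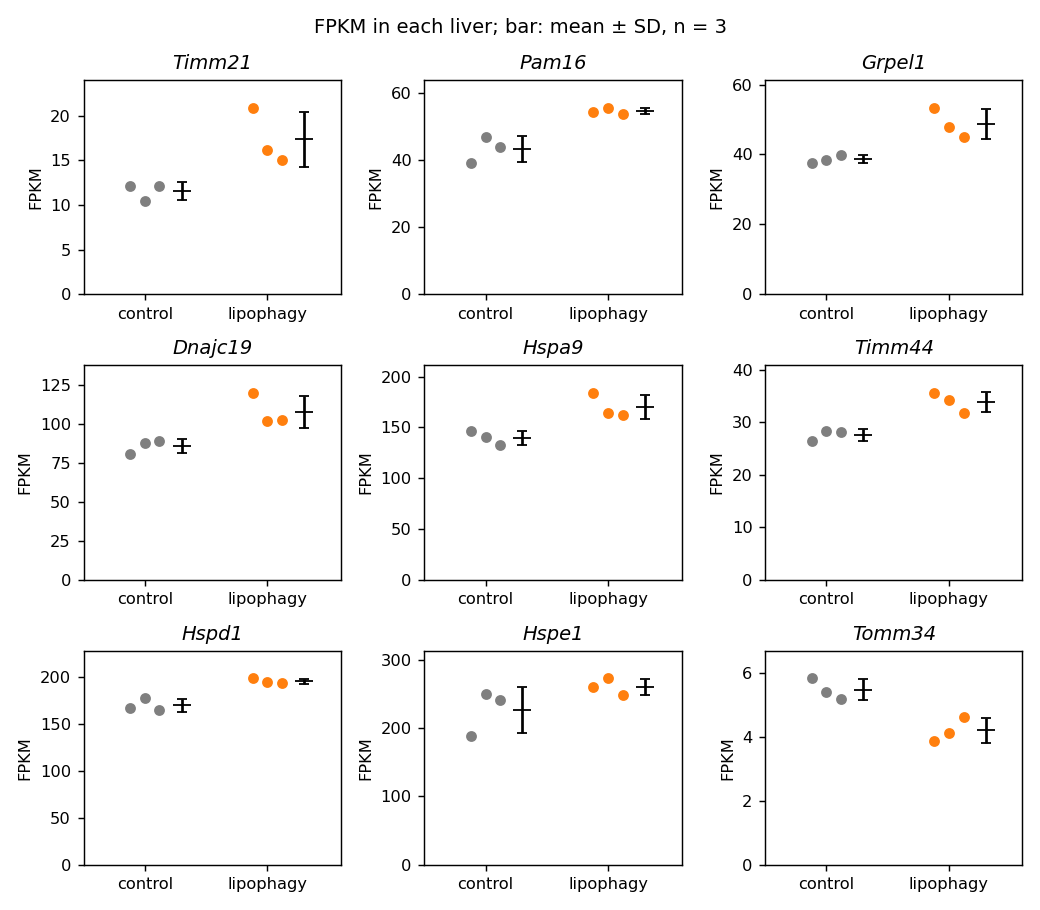
FPKM of 9 import genes in each liver, control (grey) and lipophagy (orange), 3 livers per group in label order, with the mean and SD beside the points and axes from 0. The 5 motor genes, Timm21 and Hspd1 do not overlap between groups, Hspe1 overlaps through control liver 2, and Tomm34 is lower in lipophagy livers.

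After import, presequences are cut off by the processing peptidase and matrix proteins are folded by the chaperonin. Pmpcb, the catalytic subunit, was at 91.8, 96.4 and 93.9 FPKM in control and at 118, 108 and 98.3 FPKM in lipophagy livers, a change of 0.19 (adjusted p = 0.273, limma) without overlap, and of 0.13 without lipophagy liver 1. Pmpca, the recognition subunit, changed by 0.17 from 14.9 ± 1.10 to 16.9 ± 0.953 FPKM (SD, n = 3) with overlap, and by -0.00047 in TPM. Hspd1, the chaperonin, was at 167, 177 and 165 FPKM in control and at 199, 194 and 194 FPKM in lipophagy livers. The change of 0.20 was small but wider than the spread in either group (SE 0.075, adjusted p = 0.213, limma). Hspe1, its co-chaperonin, had the highest level of all members, with 188, 250 and 241 FPKM in control and 260, 272 and 249 FPKM in lipophagy livers. Control liver 1 was far below the others, and without it the change of 0.21 became 0.081. Both genes lie on chromosome 1, transcribed in opposite directions (GRCm38.p6). RefSeq gives Hspd1 start sites at 55088243 and 55087932, and that of Hspe1 at 55088148, 216 bases from the latter. The Hspe1 sequence printed above lies in that interval. Of their 75-base stretches, 29.6% for Hspd1 and 23.7% for Hspe1 also occur in pseudogenes that have no row in the table.

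Ratios within a liver do not depend on a scaling by a single factor per liver, such as TPM. They can depend on quantile normalization or on a length and GC trend. They were compared for 12 pairs of partners or paralogs by exact permutation of the livers, two-sided, which with 3 against 3 can give no p under 0.1, and were adjusted over the 12 pairs. No pair had an adjusted p below 0.8. Dnajc19 against Dnajc15, its paralog outside the chosen names, had log2 ratios of 0.75, 0.81 and 0.85 in control livers and 1.06, 0.94 and 0.999 in lipophagy livers. This was the one pair at the smallest p, with a difference of 0.20. Grpel1 exceeded its paralog Grpel2 by 2.25, 2.10 and 2.06 (log2) in control and by 3.05, 2.35 and 2.10 in lipophagy livers, so that the difference of 0.37 (exact permutation p = 0.2) came largely from lipophagy liver 1 and was 0.091 without it. The ratio of Hspd1 to Hspe1 differed by -0.0054 between groups (exact permutation p = 1), and that of Timm17a to Timm17b by 0.0073, with an SD of 0.206 for the former and 0.208 for the latter among control livers. The ratios of Mtx1 to Mtx2, Hspa9 to Grpel1, Pmpca to Pmpcb, Timm9 to Timm10, Tomm40 to Tomm40l, Timm8a1 to Timm8b, Tomm20 to Tomm70a and Timm23 to Timm17a differed by between -0.047 and 0.14. As the smallest p is 0.1 with 3 livers in each group, no shift of any size could have passed a threshold of 0.05.

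Other nuclear genes of mitochondria were set beside the members by count and median. Of 17 import factors outside the chosen names, 15 had a higher mean (9 in TPM), the median was 0.13 and 5 were higher with an unadjusted p below 0.05, a call met by 11.5% of all tested genes. These 5 became 0 in TPM and 1 after quantile normalization, where 2.05% and 6.48% of all tested genes met that call. That median was 0.0014 in TPM and 0.23 without lipophagy liver 3. Immp2l, a subunit of the inner membrane peptidase, was highest (0.31, from 37.2 ± 1.41 to 46.7 ± 5.34 FPKM), and Mtx3, a metaxin, was lowest (-0.17, with overlap), though not when control liver 1 was left out (-0.067). All 15 genes of a list of mitochondrial proteases, other chaperones and related proteins had a higher mean (median 0.23). Only 9 did in TPM (median 0.052) and 12 after quantile normalization. They ran from Oma1, a stress-activated protease, at 0.061 to Phb2, a prohibitin of the inner membrane, at 0.32. The change of Oma1 turned to -0.11 in TPM. It was 0.11, 0.037 and 0.035 when control livers 1, 2 and 3 were left out in turn. Clpx was also at 0.061, and lay below Oma1 in TPM (-0.12) and after quantile normalization (-0.061 against 0.014). Phb2 was at 106, 101 and 104 FPKM in control and 137, 125 and 127 FPKM in lipophagy livers. All 8 genes of MICOS and the cristae had a higher mean, in TPM too (median 0.20, and 0.025 in TPM). An unadjusted p below 0.05 was found for 3 of them, against 0 in TPM and 1 after quantile normalization. The shares of all tested genes were 11.5%, 2.05% and 6.48%. Chchd3 had the highest change, 0.31, and Chchd6 the lowest, 0.16, which rested on lipophagy liver 1 and turned to -0.14 without it, while it ranged from 0.094 to 0.32 with each of the other livers left out. None of these genes had an adjusted p below 0.05.

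The 77 mitochondrial ribosomal proteins had a median of 0.19, and 75 had a higher mean, against 46 in TPM and 62 after quantile normalization. Mrpl12 was highest at 0.42 and Mrps25 lowest at -0.068, or -0.10 without control liver 1. Among 78 tested of 81 subunits of oxidative phosphorylation, much of the cargo of the import path, 76 had a higher mean (69 in TPM, 65 after quantile normalization) and the median was 0.28. With an unadjusted p below 0.05, 56 of them (71.8%) were higher, compared with 42.9% of ribosomal proteins, 54.3% of the import members and 11.5% of all tested genes. In TPM these shares were 17.9%, 2.60%, 2.86% and 2.05%, and after quantile normalization 17.9%, 13%, 22.9% and 6.48%. Cox7b, of cytochrome oxidase, was highest at 0.44 and Cox6b2, at under 1 FPKM in the mean of either group, lowest at -0.21. The value of Cox6b2 rested on single livers and ran from -0.016 without lipophagy liver 3, where it was no longer the lowest, to -0.51 without lipophagy liver 2. It was -0.37, -0.12 and -0.11 when control liver 1, control liver 3 and lipophagy liver 1 were left out. The differences between these lists were not tested. In TPM the list medians were 0.10 for oxidative phosphorylation and 0.014 for the ribosome, where all genes had a median of -0.13.

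**Figure D5:**
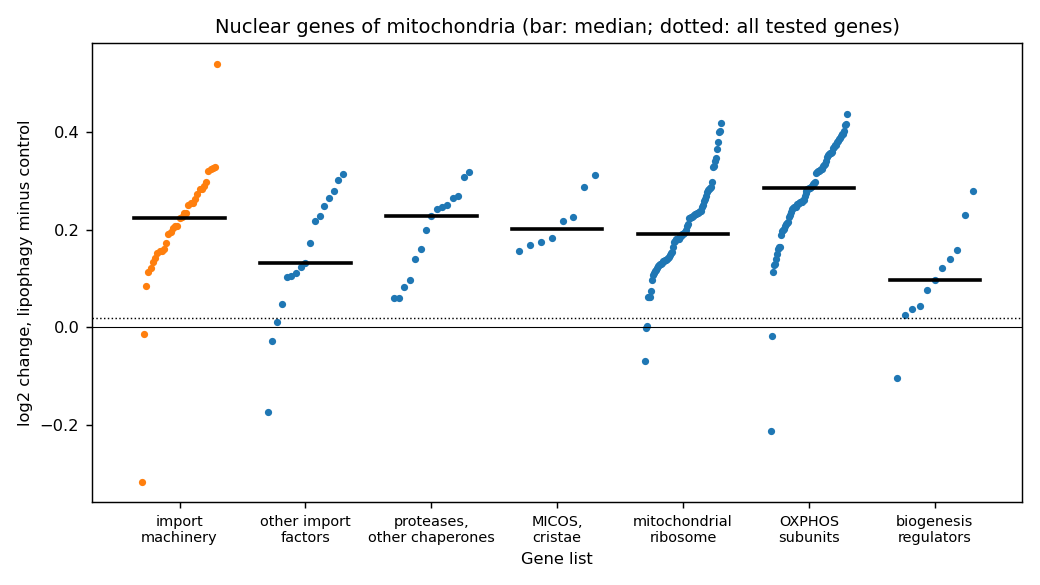
Change (log2, lipophagy minus control) of each tested gene of 7 lists of nuclear genes of mitochondria, 1 point per gene, with the list median (bar) and the median of all tested genes (dotted line, 0.020). The import genes have a median of 0.22, between oxidative phosphorylation (0.28) and the ribosome (0.19), and the regulators of biogenesis one of 0.097, which turns to -0.032 in TPM.

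Regulators of mitochondria and stress hormones were read in the same way. Of 11 regulators of mitochondrial biogenesis, 10 had a higher mean with a median of 0.097, which turned to -0.032 in TPM, where 3 were higher. The median was 0.040 when control liver 2 was left out, 0.062 when lipophagy liver 3 was and 0.16 when control liver 3 was. Tfb2m, a mitochondrial transcription factor, was highest at 0.28 and Pprc1, a coactivator, lowest at -0.10. Of the 5 genes of the mitochondrial stress response, 3 had a higher and 2 a lower mean. Their median was 0.19, or 0.0068 in TPM and 0.094 to 0.29 when each liver was left out. Those other than Gdf15 and Fgf21 overlapped between groups. Gdf15, a secreted stress signal, was at 9.31, 17.5 and 7.75 FPKM in control and at 27.7, 25.8 and 20.8 FPKM in lipophagy livers, a change of 1.11 (adjusted p = 0.134, limma). Fgf21, another hormone of hepatic stress and fasting, was at 3.52, 3.61 and 2.34 FPKM against 1.41, 1.58 and 0.986 FPKM, a change of -0.83 (adjusted p = 0.111, limma). Neither overlapped between groups, where 15.4% of all tested genes lay wholly above and 10.8% wholly below, and their directions were opposite.

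Cell type markers moved beside the members in part. Of the 8 hepatocyte markers, whose sum rests largely on Alb, 6 had a higher mean (median 0.17) with FPKM as deposited. In TPM 3 did, and after quantile normalization 3. Among 8 markers of stellate cells and fibroblasts, whose sum rests largely on Dcn, 7 were lower. Their sums were 157 to 173 FPKM in control and 127 to 157 FPKM in lipophagy livers. All 5 bile duct markers were lower (4 after quantile normalization), with overlapping sums of 137 to 247 and 92.0 to 196 FPKM. Macrophage markers summed to 477 to 628 and 463 to 589 FPKM, which rests largely on Lyz2. Of the 7 tested, 3 had a higher mean (0 in TPM, 3 after quantile normalization). Of 6 endothelial markers 5 had a higher mean (2 in TPM, 5 after quantile normalization), with sums of 21.3 to 27.2 and 25.6 to 41.5 FPKM. Neutrophil markers summed to 17.6 to 30.0 and 14.9 to 17.5 FPKM, and markers of T and B cells to 2.23 to 2.94 and 1.64 to 2.204 FPKM. All 4 blood genes had a higher mean under each of the 3 scalings (median change 1.05 with FPKM as deposited), with sums of 107 to 126 FPKM in control and 113 to 437 FPKM in lipophagy livers, the highest being liver 2. Hba-a2, which shares near-identical sequence with Hba-a1 and is therefore uncertain, was at 10.1 and 11.6 FPKM in lipophagy livers 1 and 2 and at 0.020 or 0.021 FPKM in the other 4 livers. No marker passed the adjusted threshold and none was at 0 in all livers. Their part in the result was not tested.

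Across the 35 members the size of the change had a Spearman rho of -0.016 with transcript length and of 0.32 with mean FPKM. These are descriptions over genes of the same 6 livers. After the trend on transcript length and GC content was taken off in each liver, the member median was 0.18 and that of all genes 0.0061.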

How the data were processed

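RNA of 6 mouse livers was sequenced from stranded, paired-end mRNA libraries, on a HiSeq instrument per the labels and a NovaSeq per the study's methods. The authors deposited FPKM values per gene symbol, and the submitters' processing notes name TopHat2 2.0.13, Bowtie2 2.2.3, SAMtools 0.1.19, Cufflinks 2.2.1 and mm10. The annotation and strand setting are not given in the sources used here. FPKM already holds the scaling to length and to mapped fragments and no counts, so no count model was used, and depth is known only relative to control liver 1.

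Groups came from the sample titles. Genes whose mean reached 0.5 FPKM were tested on log2(FPKM + 1), which understates changes of low genes, with limma 3.58.1 (R 4.3.3, intensity trend, two-sided, no covariate), adjusted by Benjamini-Hochberg over all of them at a threshold of 0.05. The procedure was tested on simulated data. P-values measure the spread between livers, since the labels give only a number per sample. Ratios of 12 gene pairs were compared by exact permutation. Named were all members and, in each other list, the genes with the largest rise and fall and any called. Gabpa, Grpel2, Dnajc15, Timm29, Stk4, Fbxo15 and Clpx were named beside results they touch. The members and lists were chosen with earlier results of these data known. Alternatives were pseudocounts of 0.1 and 0.5, no filter or means of at least 0.1 or 1 FPKM, TPM, quantile normalization, equal medians, no intensity trend, quality weights per liver, the replicate block, a length and GC trend taken off, and leaving out each liver. Overlaps and shared stretches of 75 bases were read from GENCODE transcripts and promoters from RefSeq, both on GRCm38. Tables and plots used Python 3.11.15, pandas 2.3.3, numpy 2.4.6, scipy 1.17.1 and matplotlib 3.10.9.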

Additional observations from a re-analysis of the deposited data

How the results depend on the processing

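No member passed an adjusted p below 0.05 (limma) under any of the alternatives, while 19 were higher with an unadjusted p below 0.05. Between 33 and 35 members had a higher mean under every alternative except TPM (23) and quantile normalization (32), and 24 of 35 member changes kept their direction and their side of the threshold under all. The genes called over the whole table numbered 3, against 1 with no filter, 104 in TPM, 39 with quality weights, 5 with the length and GC trend taken off, and 1 to 11 when each liver was left out in turn. Members higher with an unadjusted p below 0.05 numbered 1 in TPM, 8 after quantile normalization and 11 to 21 when each liver was left out. The member median was 0.043 in TPM and 0.089 after quantile normalization. TPM turned the medians of the TIM23 channel (-0.027) and of the biogenesis regulators (-0.032), and the changes of Pmpca (-0.00047), Timm10 (-0.057), Timm17a (-0.027), Timm17b (-0.034), Timm22 (-0.041), Timm50 (-0.095), Timm9 (-0.021), Timmdc1 (-0.013), Tomm6 (-0.024) and Tomm7 (-0.046). Dividing by a sum that is larger in lipophagy livers lowers every gene there by construction. Quantile normalization turned Timm50 (-0.034), Tomm6os (0.037) and Tomm7 (-0.0061), and the length and GC fits turned Tomm6os (0.0015), for which the cause was not tested. Leaving out each liver moved Tomm6os between -0.068 and 0.049. With the length and GC trend taken off, the ratio of Timm17a to Timm17b differed by -0.053 and that of Pmpca to Pmpcb by 0.039. Leaving out each liver turned several pair differences, which ranged from -0.064 to 0.13 for Timm17a to Timm17b, from -0.25 to 0.23 for Tomm40 to Tomm40l, from -0.037 to 0.13 for Timm8a1 to Timm8b, from -0.040 to 0.17 for Timm9 to Timm10, from -0.078 to 0.11 for Hspd1 to Hspe1, from -0.067 to 0.063 for Pmpca to Pmpcb, from -0.070 to 0.067 for Mtx1 to Mtx2 and from -0.11 to 0.0055 for Hspa9 to Grpel1.

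With the replicate number as a block, 43 genes were called, and 41 with the block and the length and GC trend taken off, none of them a member. Same-numbered livers had correlations of 0.25, 0.23 and -0.057 in their deviations from the group means. Control livers 1 and 2 correlated best with the lipophagy liver of the same number, and control liver 3 with lipophagy liver 2 (0.25). With 3 livers per group these values cannot decide whether same-numbered livers belonged together, and the labels give only a number. Depth and 3 livers per group limit what can be seen in low members such as Timm22.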
